A study of Homo sapiens with 18 samples.

Results

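ATAD2 knockdown in PLC was measured on 6 of the 18 arrays of the series, the 3 titled PLC with ATAD2 siRNA and the 3 titled PLC with control siRNA. PLC (PLC/PRF/5) is an established human hepatocellular carcinoma line that carries integrated hepatitis B virus DNA. The cells were grown in RPMI and transfected with siRNA by a lipid reagent, and both groups went through transfection. The other 12 arrays are the same pair of groups in arrays labelled Hep3B and SNU449, with 3 arrays a group. The labels call the arrays of a group biological replicates and name the treated arrays knockouts, whereas the design text names siRNA. No source used here gives the siRNA sequences, their dose or the time after transfection, and the controls received non-targeting siRNA. The question asked of these arrays was what ATAD2 knockdown changes in PLC, as part of an evaluation of ATAD2 as a target in liver cancer.

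ATAD2 is a nuclear AAA+ ATPase whose bromodomain binds acetylated histones, and it is known as a coactivator of E2F, MYC and steroid hormone receptors that is often overexpressed in liver cancer. Hepatocytes make most plasma proteins, among them albumin, apolipoproteins, clotting factors and acute phase proteins. These genes are driven by a small network of liver transcription factors, including the HNF4, FOXA and C/EBP families, and hepatocellular carcinoma lines keep this programme to different degrees.

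Values are log2 signals of Affymetrix probe sets, quantile normalized over all 18 arrays, with 1 probe set for each of 19775 genes. The PLC control arrays carried transcripts of liver cancer cells. The log2 signal of ALB reached 10.52 to 10.65, and that of the alpha-1-antitrypsin gene SERPINA1 was 11.48, 11.39 and 11.45. Of 14 leukocyte and endothelial markers measured, 0 were called in limma at an adjusted p of 0.05, with a median log2 change of -0.02. That count concerns change with siRNA and not the presence of the transcripts. Their median control level was 4.83, against 6.04 over all genes. In control arrays the leukocyte genes PTPRC and CD3E had means of 2.77 and 5.80. The endothelial genes KDR and PECAM1 had 3.15 and 6.12. Most liver markers on the arrays of the other labels went against the names. ALB lay between 2.90 and 3.16 on the control arrays labelled Hep3B, a line known to make albumin, and between 13.75 and 13.78 on those labelled SNU449, and AFP had medians of 5.13 and 9.27. The fibrinogen gene FGB went the other way, with control medians of 11.46 under the Hep3B label and 6.92 under the SNU449 label. Those labels are used here only as names of arrays.

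The treated arrays were not alike in quality. The 5' signal of the beta-actin control probe sets lay below the 3' signal by a log2 difference of -1.53 and -1.39 on ATAD2 siRNA arrays 1 and 3, against -0.58 on ATAD2 siRNA array 2 and -0.82, -0.65 and -0.60 on the control arrays. For GAPDH the difference was -0.76 and -0.78 on ATAD2 siRNA arrays 1 and 3, -0.33 on array 2, and -0.37, -0.32 and -0.27 in the controls. The low 5' signal thus moved with the treatment on the arrays numbered 1 and 3, and array 2 lay with the controls. The median standard deviation of a gene was 0.118 log2 units over the ATAD2 siRNA arrays of PLC and 0.0718 over its control arrays. Many results are therefore given array by array, and also for fits without ATAD2 siRNA arrays 1 and 3. The part of the 5' signal in the gene changes was tested only by those fits and by a fit with the 5' to 3' difference as a covariate.

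**Figure D1:**
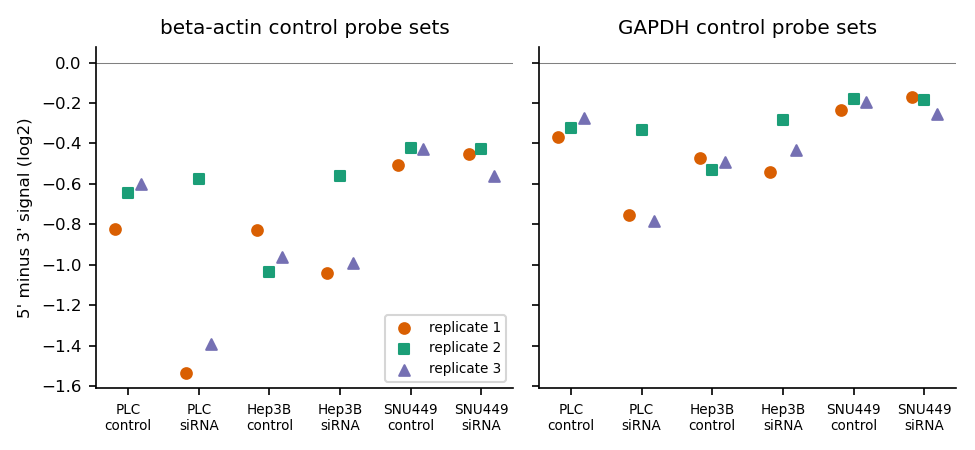
Difference between 5' and 3' log2 signal of the beta-actin and GAPDH control probe sets on each of the 18 arrays, with 1 point per array and a marker shape per replicate number. On the PLC siRNA arrays, replicates 1 and 3 lie at -1.53 and -1.39 for beta-actin and replicate 2 at -0.58.

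The knockdown itself was even over the treated arrays. The main ATAD2 probe set fell from 9.78, 9.67 and 9.69 to 7.05, 7.17 and 7.06, a 6.14-fold fall (log2 change -2.62 ± 0.16, SE; limma, adjusted p = 3.04e-07). A probe set with nearly the same control level fell from 9.72, 9.61 and 9.59 to 6.42, 6.91 and 6.74, or 7.72-fold. The other probe sets of ATAD2 fell 4.68-fold and 2.04-fold. None of the 4 overlapped between the groups. The paralogue ATAD2B did not pass the threshold (adjusted p from 0.854 to 0.984 over its 3 probe sets in limma), with 7.33, 7.35 and 7.34 in controls against 7.34, 7.21 and 7.48 after ATAD2 siRNA. Of 29 bromodomain genes measured, ATAD2 alone was called (3.45%, against 4.57% of all genes).

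In the limma fit, 904 genes passed an adjusted p of 0.05, which was 4.57% of the genes tested. Of these, 462 were higher (2.34%) and 442 lower (2.24%). The changes were small, with a median size of 0.34 log2 units among the higher and 0.36 among the lower genes. At least 0.5 log2 units was reached by 77 higher and 100 lower genes, and at least 1 by 0 higher and 3 lower genes, ATAD2, TXNDC16 and ALB. The signal ranges of the groups did not overlap for 19.9% of all genes tested. The split between directions depended on the scaling, since 65.5% of calls were lower on the values as deposited and 77.4% when each array was centred on its median, against 48.9% here.

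Over the called genes, the median change was smaller on array 2 than on arrays 1 and 3. Among the 462 higher genes the median difference from the control mean was 0.39, 0.23 and 0.39 log2 units on ATAD2 siRNA arrays 1, 2 and 3, and among the 442 lower genes it was -0.42, -0.25 and -0.37. For 97 of the higher and 87 of the lower genes, array 2 showed under 1/3 of the mean change of the other arrays. For 145 of the higher and 172 of the lower genes it moved at least as far as the nearer of them. None of the 904 lay on the opposite side of the control mean on array 2, which the choice of called genes in part fixes. The number of calls moved with single arrays. It was 3215 without ATAD2 siRNA array 2, 477 and 593 without arrays 1 and 3 in turn, and 442, 402 and 449 without control arrays 1, 2 and 3. With ATAD2 siRNA array 2 alone against the controls, the pooled spread standing in for its own, 874 genes were called, of which 207 were also called with all arrays. With the 5' to 3' covariate 381 genes were called, 196 of them shared. With the PLC arrays fitted by themselves, 15 genes were called.

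A set of 107 genes (0.541% of those tested) held its call with all arrays and in each of 7 reduced fits, those without each PLC array in turn and the one without ATAD2 siRNA arrays 1 and 3 together. It had 44 higher and 63 lower genes. A gene is said here to hold in the reduced fits when it is in this set. Of 100 called genes named here other than ATAD2, 50 had more than 1 probe set, and for 18 of these another probe set was called in the same direction and for 0 in the opposite one. Another probe set with a control mean of at least 6 was present for 33, and for 5 of these (EBP, HGD, INSR, SHMT2 and WIPI1) one had a change of opposite sign.

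**Figure D2:**
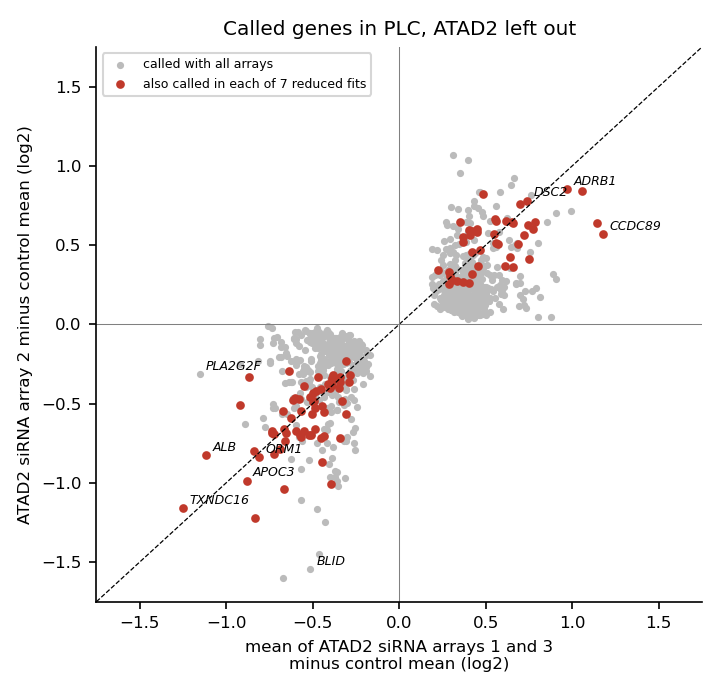
Genes called in PLC other than ATAD2, with the mean log2 difference from the control mean on ATAD2 siRNA arrays 1 and 3 on the x axis, and that on array 2 on the y axis; the dashed line marks equal values. Red points hold in the 7 reduced fits, and TXNDC16, APOC3, ORM1 and DSC2 lie near the line.

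Genes of hepatocyte function were among the lower calls. Over 10 lists of secreted proteins, liver transcription factors, metabolic enzymes and transporters, 208 of 242 genes were measured, and 39 were lower (18.8%, against 2.24% of all genes) and 2 were higher. Of the 39, 14 held in the reduced fits. The median over the 208 genes was -0.06, -0.05 and -0.09 on ATAD2 siRNA arrays 1, 2 and 3, so that most members moved little, and 62.5% of them lay below 0 against 46.45% of all genes. With array 2 alone against the controls, 20 members were lower and 3 higher, where 2.41% of all genes were lower and 2.01% higher. With the 5' to 3' covariate 17 were lower and 1 higher, where 1.13% of all genes were lower and 0.799% higher. In bulk RNA, fewer cells with a transcript and less of it in each cell cannot be told apart.

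Promoter sequences are shown for ALB, ORM1 and RBP4, plasma protein genes that fell on every treated array and kept their call at an adjusted p of 0.05 in each of 18 alternative fits. ALB alone of them changed by at least 1 log2 unit. APOC3 and APOA1 also fell on every treated array and kept their call in those fits, but no promoter sequence was available for them. The sequences shown are RefSeq sequences of the build GRCh38.p14, from 250 bases before to 50 bases after the annotated start, 5′ to 3′ on the gene's strand. They lie at chr4:73404037-73404336 on the plus strand for ALB, chr9:114322848-114323147 on the plus strand for ORM1 and chr10:93601695-93601994 on the minus strand for RBP4. Capitals mark the matches to the motifs searched, which were CAAAGTCCA of HNF4, TTGCNNAA of C/EBP, TGTTTNC of FOXA and TATAAA of the TATA box, all on both strands. CCAAT was counted too, without capitals. It was added after the counts of the other motifs had been seen.
ALB: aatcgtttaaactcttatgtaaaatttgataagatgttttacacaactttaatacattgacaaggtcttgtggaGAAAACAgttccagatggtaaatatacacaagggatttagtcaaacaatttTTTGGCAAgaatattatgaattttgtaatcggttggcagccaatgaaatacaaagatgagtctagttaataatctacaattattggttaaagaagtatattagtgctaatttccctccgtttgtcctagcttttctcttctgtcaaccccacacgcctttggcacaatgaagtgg
ORM1: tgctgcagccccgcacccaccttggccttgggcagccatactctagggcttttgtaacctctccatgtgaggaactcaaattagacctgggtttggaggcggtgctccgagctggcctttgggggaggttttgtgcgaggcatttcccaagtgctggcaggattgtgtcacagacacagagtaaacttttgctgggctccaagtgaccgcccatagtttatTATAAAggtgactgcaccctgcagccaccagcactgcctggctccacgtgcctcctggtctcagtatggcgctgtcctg
RBP4: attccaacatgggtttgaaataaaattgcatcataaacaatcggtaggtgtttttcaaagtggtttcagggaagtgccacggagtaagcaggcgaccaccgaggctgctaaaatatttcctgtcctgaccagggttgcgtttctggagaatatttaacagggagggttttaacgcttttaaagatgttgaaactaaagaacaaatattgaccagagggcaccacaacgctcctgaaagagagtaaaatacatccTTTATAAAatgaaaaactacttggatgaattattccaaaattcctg
With the annotated start as 0, the ALB promoter held a C/EBP match at -125 to -118 and a FOXA match at -176 to -170. The ORM1 promoter held TATAAA at -29 to -24. In RBP4 the only match was to the TATA letters, on both strands at 4 to 11. Among secreted-protein genes with a promoter in the table, the C/EBP letters were found in 5 of the 18 that fell, in 10 of the 45 others and in 8.39% of 15384 promoters. For the other motifs the counts among the 18, among the 45 and over all promoters were 2, 1 and 0.325% for HNF4 and 4, 12 and 14.5% for FOXA. They were 5, 6 and 8.76% for TATAAA and 6, 16 and 36.1% for CCAAT. These are letter matches only.

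Of 9 albumin family and carrier genes measured, 5 fell (55.6%, against 2.24% of all genes) and 0 rose. ALB had signals of 10.65, 10.52 and 10.65 in controls against 9.54, 9.78 and 9.44 with ATAD2 siRNA, a 2.03-fold fall (log2 change -1.02 ± 0.14, SE with n = 3 arrays a group; limma, adjusted p = 0.000984). All treated arrays lay below all controls, and array 2 lay nearest to them. A second ALB probe set went from 8.48, 8.27 and 8.44 to 6.62, 7.53 and 6.72, a 2.71-fold fall, while the pair of dim ALB probe sets did not pass. The vitamin A carrier gene RBP4 had 7.05, 7.05 and 7.13 in controls against 6.47, 6.42 and 6.34 after ATAD2 siRNA, a change of -0.67 ± 0.05 (limma, adjusted p = 6.69e-06). Its groups did not overlap, and the treated arrays were close to each other. Its dim second probe set did not pass. Alpha-fetoprotein (AFP), the fetal counterpart of albumin and a serum marker of liver cancer, went from 7.52, 7.55 and 7.53 to 7.07, 7.20 and 7.20 (-0.38, adjusted p = 0.0116 in limma). The AFP call was lost without arrays 1 and 3 (adjusted p = 0.0939) and with the 5' to 3' covariate (0.0740), although the change on array 2 was -0.34. The vitamin E carrier gene AFM fell by 0.62 and the heme carrier gene HPX by 0.26, and neither held in the reduced fits. Transthyretin (TTR), the thyroid hormone carrier, had a change of 0.10 and was not called (limma, adjusted p = 0.623). The list's median was -0.26, -0.29 and -0.31 on ATAD2 siRNA arrays 1, 2 and 3, against 0.02, 0.00 and 0.01 over all genes.

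Apolipoproteins and lipoprotein genes gave the largest number of calls that held. Of 16 measured, 7 fell (43.8%, against 2.24% of all genes) and 0 rose. Of the 7, 6 held in the reduced fits, where 63 of all 442 lower genes held. APOC3, whose product slows the clearance of triglyceride-rich lipoproteins, went from 6.92, 6.83 and 6.91 to 5.89, 5.90 and 6.11, a change of -0.92 ± 0.09 or 1.89-fold (limma, adjusted p = 4.09e-05). APOA1, the main protein of high-density lipoprotein, went from 7.63, 7.62 and 7.65 to 6.91, 6.96 and 6.89, a change of -0.71 ± 0.08 (limma, adjusted p = 9.4e-05). In both genes the treated arrays lay close together and well below the controls. A second APOA1 probe set fell 1.68-fold and the dim one did not pass, while the second APOC3 probe set, of low signal, changed by -0.02 and did not pass. APOA2, the other major protein of high-density lipoprotein, went from a control mean of 11.04 to 10.55, 10.36 and 10.43, a change of -0.59, with array 2 lowest. APOE, a ligand of lipoprotein receptors, went from 11.33, 11.35 and 11.42 to 10.51, 11.03 and 10.49, a change of -0.69. On array 2 the APOE change was -0.33, less than on the arrays of low 5' signal, and the groups did not overlap. MTTP, which loads lipid onto APOB, fell by 0.36, and APOH and APOM fell by 0.31 and 0.28. Of these, APOM did not hold. APOB itself had a change of -0.23 and was not called (limma, adjusted p = 0.168).

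Acute phase genes were lower for 4 of 15 measured members (26.7%, against 2.24% of all genes) and higher for 0. ORM1, which encodes the plasma protein orosomucoid, went from 7.12, 7.21 and 6.999 to 6.32, 6.27 and 6.28, a change of -0.82 ± 0.06 or 1.76-fold (limma, adjusted p = 3.45e-06). Its treated arrays were nearly equal. ORM2, a close copy of ORM1, was not analysed here, and the probe set of ORM1 may read both. The copper carrier gene CP fell by 0.58, the fibrinogen-like gene FGL1 by 0.54 and SERPINA1 by 0.49, with adjusted p from 0.0165 to 0.0234 in limma. SERPINA1 had 10.93, 11.12 and 10.79 on the treated arrays, and its second bright probe set fell 1.59-fold. The calls of CP, FGL1 and SERPINA1 were lost without arrays 1 and 3, where the changes on array 2 were -0.53, -0.47 and -0.31. The fibrinogen gene FGB had a change of -0.05 and was not called.

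Coagulation genes fell in 6 of 23 cases (26.1%, against 2.24% of all genes) and rose in 1. Prothrombin (F2) went from 8.24, 8.15 and 8.23 to 7.86, 7.80 and 7.74, a change of -0.40 ± 0.07 (limma, adjusted p = 0.00554), and held in the reduced fits. The factor VII gene F7 fell by 0.50, with -0.41, -0.67 and -0.42 on the ATAD2 siRNA arrays. F13B fell by 0.73 from a control mean of 3.51, the protease inhibitor gene SERPIND1 by 0.50 (with -0.08 on array 2, and overlapping groups), F10 by 0.32 and AHSG by 0.29. The factor IX gene F9 rose, from 3.42, 2.56 and 2.99 to 4.16, 3.83 and 3.93, a change of 0.98 ± 0.16 or 1.98-fold (limma, adjusted p = 0.00406). F9 held in the reduced fits, though its signal was low and its control arrays were far apart. Of 19 complement genes 0 were called, with a lowest change of -0.40 for C3.

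**Figure D3:**
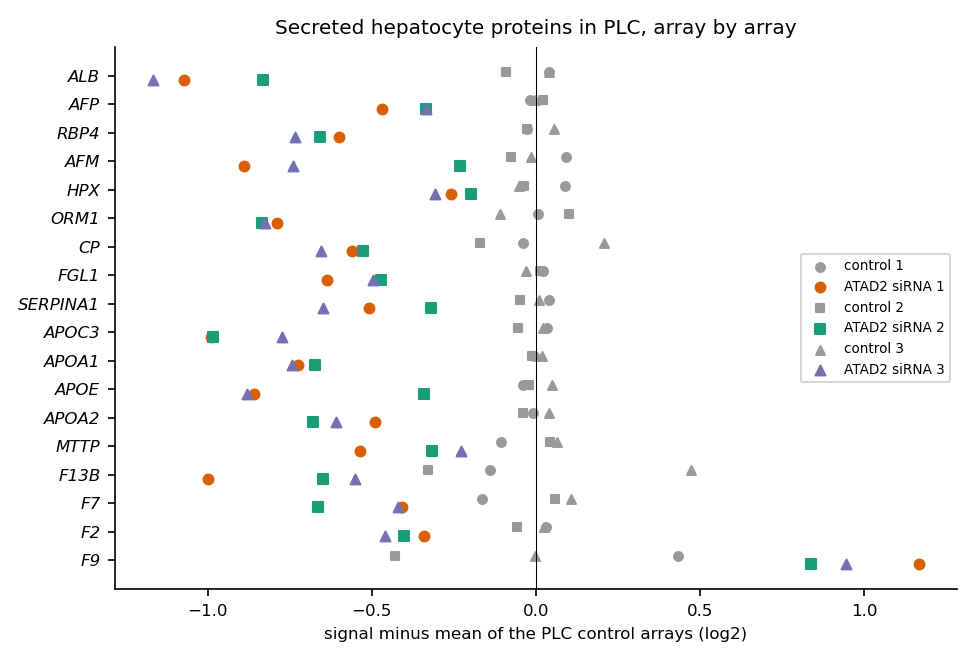
Log2 signal minus the mean of the PLC control arrays for 18 called genes of secreted proteins and lipoprotein assembly, with grey points for control arrays and coloured points for ATAD2 siRNA arrays, and a shape per replicate number. The treated points lie left of the control points for all genes shown except F9, and for ALB, AFM and APOE array 2 lies nearest to the controls.

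Among liver transcription factors, 4 of 23 measured fell (17.4%, against 2.24% of all genes) and 0 rose. The oxysterol receptor gene NR1H3 went from 6.59, 6.40 and 6.48 to 5.997, 6.11 and 6.17, a change of -0.40 (limma, adjusted p = 0.00558), and held in the reduced fits. CEBPA, which drives many liver genes, fell by 0.40 with -0.54, -0.26 and -0.39 on the treated arrays. FOXA3 fell by 0.29 and the corepressor gene NR0B2 by 0.24. The calls of CEBPA, FOXA3 and NR0B2 did not hold in the reduced fits. The list's median of -0.01 was close to that of all genes.

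Enzymes and transporters of the hepatocyte also held lower calls, against 2.24% lower over all genes. Of 22 urea cycle and amino acid genes 5 fell and 0 rose. The histidine-degrading enzyme gene HAL fell by 0.57 and held in the reduced fits, while the tyrosine-degrading enzyme genes HGD (-0.38) and FAH (-0.34) and the urea cycle genes ASS1 (-0.32) and ASL (-0.30) did not hold. On array 2 alone, FAH changed by -0.05 and ASL by -0.11. Of 28 cytochrome P450 genes 2 fell and 0 rose, the arachidonate epoxygenase gene CYP2J2 by 0.57 and CYP4F3 by 0.38. CYP2J2 held in the reduced fits and CYP4F3 did not. The P450 list as a whole did not fall, with a median of 0.04 and 16 members above 0. Of 30 conjugation genes 3 fell (EPHX2, SULT1E1 and MGST1) and 1 rose, NNMT by 0.42. Of 23 transporters and receptors 3 fell, the asialoglycoprotein receptor genes ASGR1 (-0.44) and ASGR2 (-0.36) and the glucose transporter gene SLC2A2 (-0.39), of which SLC2A2 held in the reduced fits.

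When the PLC arrays were fitted by themselves, so that their own wider spread set the error, 12 genes were lower and 3 higher. They were ATAD2, TXNDC16, ALB, APOC3, ORM1, MRPS33, APOA1, ACOX2, IGFBP3, RBP4, SERPINF1 and AVL9 on the lower side, and DESI2, CSGALNACT2 and DSC2 on the higher side. All 15 were also called with all arrays. SERPINF1, AVL9 and DESI2 are named because they are in this set, and were chosen after their values were seen. TXNDC16, an endoplasmic reticulum protein with thioredoxin domains, went from 7.64, 7.62 and 7.59 to 6.24, 6.45 and 6.49, a change of -1.22 ± 0.08 or 2.33-fold (limma with all arrays, adjusted p = 1.11e-06). It was the gene with the largest fall after ATAD2. The mitochondrial ribosome gene MRPS33 went from 9.92, 9.86 and 9.90 to 9.14, 9.07 and 9.20, a change of -0.75. The peroxisomal oxidase gene ACOX2, which acts in bile acid synthesis, went from 7.01, 7.07 and 7.22 to 6.37, 6.41 and 6.38, and the insulin-like growth factor carrier gene IGFBP3 from 6.72, 6.60 and 6.64 to 6.03, 5.97 and 5.96. For these genes the ranges of the groups were separate. Array 2 lay lowest of the treated arrays for MRPS33, highest for ACOX2 and between the others for IGFBP3. The desmosomal cadherin gene DSC2 rose from 7.50, 7.35 and 7.43 to 8.20, 8.21 and 8.14, a change of 0.75 ± 0.07 or 1.69-fold (limma with all arrays, adjusted p = 3.46e-05). Of its 3 dimmer probe sets none passed, with changes of 0.18, 0.50 and 0.43. CSGALNACT2, which starts chondroitin sulfate chains, rose by 0.70, and a second probe set of it rose by 0.62.

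Most of the remaining large rises were in genes of very low signal. They were those of CCDC89 (0.98, from a control mean of 2.50), the small proteoglycan gene OGN (0.97, from 2.49), CPNE4 (0.90, from 2.75), the related OMD (0.84, from 2.36), ALG14-AS1 (0.79, from 2.59) and DLEU7 (0.75, from 3.14). PLCZ1, RAI2 and RAD9B rose by 0.74, 0.72 and 0.72 from control means of 3.19, 3.19 and 2.86. A control mean under 4 was found for 16.2% of all genes, for 125 of the 462 higher calls and for 85 of the 442 lower ones. OGN had 3.90, 3.13 and 3.37 on the treated arrays, so that array 1 lay above the others. The adrenergic receptor gene ADRB1 was brighter, and rose from 6.67, 6.80 and 6.98 to 7.70, 7.67 and 7.87, a change of 0.93 ± 0.11 (limma, adjusted p = 0.000176), with its dimmer probe sets not called.

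Among large falls the dim genes were also uneven between arrays. BLID had 3.28, 2.25 and 3.29 on the treated arrays and OLFML1 3.05, 2.16 and 3.23, so that array 2 made most of their falls of 0.86 and 0.79. PLA2G2F had 2.25, 3.49 and 3.05, with array 1 lowest. The antisense transcript BABAM2-AS1 fell by 0.96, the membrane protein gene TMEM200A by 0.83, METTL21C by 0.81, the pseudogene ZPR1P1 by 0.79 and LOC101928697 by 0.78, all from control means of at most 4.14. A pseudogene's probe set may read its parent gene.

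The change in PLC was set against the mean change in the arrays labelled Hep3B and SNU449, which share no control arrays with PLC. In the limma fit this difference passed for 890 genes (4.5% of those tested), with the PLC change the higher one for 479 and the lower one for 411. For hepatocyte genes the difference went mainly downward, but the other labels gave some of them little room to fall. ALB and APOA1 lay at 3.02 and 4.43 (medians of the control arrays) under the Hep3B label, near the dim end of the scale, and ALB lay at 13.75 under the SNU449 label, near its top. The part of these levels in the difference was not tested. Of the 208, 36 had a lower change in PLC than in the other labels and 3 a higher one. ALB changed by 0.05 under the Hep3B label and by -0.01 under the SNU449 label (difference adjusted p = 0.00477, limma), APOC3 by -0.05 and -0.24 (0.0021) and ORM1 by 0.02 and 0.07 (4.39e-05). RBP4 changed by -0.01 and 0.01 there (difference adjusted p = 0.000125). Of the same genes 22 were higher and 8 lower with knockdown under the Hep3B label, where 16.4% of all genes were called. The fibrinogen alpha gene FGA rose by 1.07 under the Hep3B label and changed by -0.34 in PLC without passing there, and the difference passed (limma, adjusted p = 0.0442).

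A second group of genes moved the same way under the Hep3B label. TXNDC16 changed by -2.20 under the Hep3B label and by -0.45 under the SNU449 label, IGFBP3 by -0.64 and -0.36, and DSC2 by 1.57 and 0.07. For none of the 3 did the difference of PLC from the mean of the others pass (limma, adjusted p = 0.566, 0.163 and 0.710). That mean joins unlike changes for TXNDC16 and DSC2, and the difference from each label by itself was not tested. MRPS33 fell by 2.22 under the Hep3B label and by 0.78 under the SNU449 label, so that its fall in PLC was smaller than their mean (difference of 0.74, adjusted p = 0.000719). Of the 462 genes higher in PLC, 128 were also higher under the Hep3B label, which was 27.7% of the PLC genes and 7.46% of the 1717 Hep3B genes. Of the 442 lower genes 112 were also lower there, or 25.3% and 7.32% of the respective lists. In the opposite direction were 15 and 17. The share of all genes higher or lower under the Hep3B label was 8.68% and 7.74%.

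**Figure D4:**
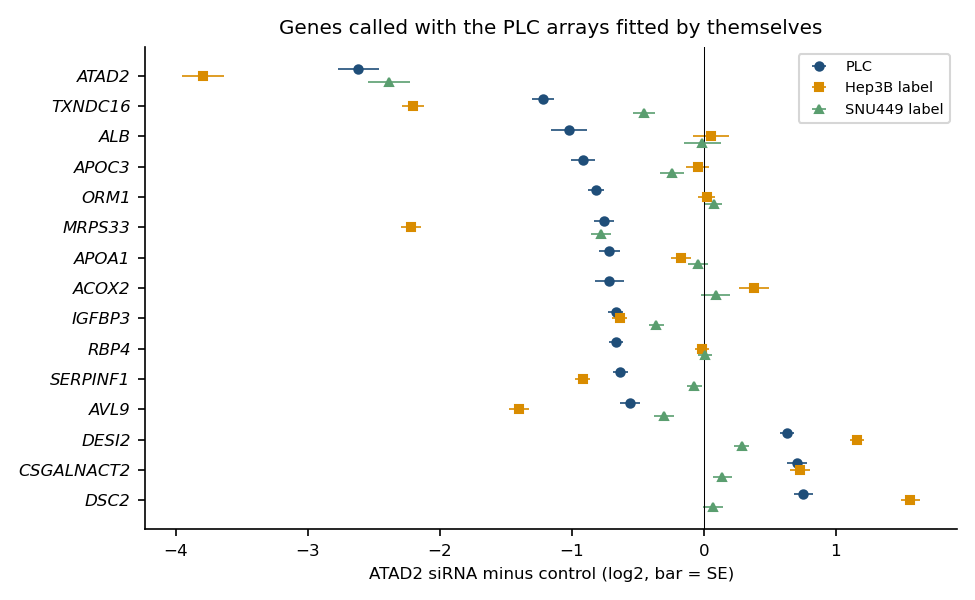
Log2 change with ATAD2 siRNA in PLC and under the Hep3B and SNU449 labels for the 15 genes called with the PLC arrays fitted by themselves, with bars for the SE of the limma fit over all arrays. ALB, APOC3, ORM1, APOA1 and RBP4 lie near 0 under the other labels, whereas TXNDC16, MRPS33 and DSC2 moved further under the Hep3B label than in PLC.

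Cell cycle genes moved little in PLC. Among 57 genes of E2F and the G1/S transition, 3 fell and 0 rose (5.26%, near the background of 4.57%), with a median of -0.06, -0.04 and -0.02 on the treated arrays. The replication genes RFC2, MCM2 and MCM4 fell by 0.36, 0.32 and 0.29, with -0.06, -0.16 and -0.06 on array 2, and none held in the reduced fits. For 7 members the change in PLC was higher than the mean of the other labels, and for 0 lower, against 2.42% and 2.08% of all genes. Of the 57, 36 fell under the Hep3B label. UHRF1, which ties DNA methylation to replication, changed by 0.15 in PLC without passing and by -0.79 under the Hep3B label (difference adjusted p = 0.0062, limma), and CCNE1 by 0.18 and -0.45 (0.0063). Of 63 mitotic genes 0 fell and 1 rose, CDCA3 by 0.38. Of 27 homologous recombination and Fanconi genes 0 were called, and of 31 histone cluster genes 1 rose, H2BC13, whose probe set may read other histone copies.

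Of 24 genes earlier linked to ATAD2, 2 fell and 2 rose (16.7% called, against 4.57% over all genes). MYC, a growth-promoting transcription factor gene, fell by 0.37 with -0.50, -0.12 and -0.51 on the treated arrays, and the kinase gene SGK1 fell by 0.31. The death receptor genes TNFRSF10A and TNFRSF10B rose by 0.37 and 0.35. TNFRSF10B went up by 0.46, 0.19 and 0.40 on the treated arrays. Its other probe sets changed by 0.10, 0.08 and 0.06, and those of TNFRSF10A by 0.03 and 0.29, and none of them passed. The array of higher 5' signal showed the smallest change for each of these 4 genes, and none of the 4 held in the reduced fits. CDKN1A, the p53 target and cyclin-dependent kinase inhibitor gene, changed by 0.16 and was not called (limma, adjusted p = 0.146), though its change differed from the mean of the other labels (0.00477).

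Stress and metabolic lists held 0 to 3 calls each, against 4.57% called over all genes. In the NRF2 list, 3 of 27 fell, all aldo-keto reductase genes, AKR1C3 by 0.52, AKR1C2 by 0.45 and AKR1C1 by 0.39. These genes are near-identical copies, so that their probe sets may read one another. AKR1C3 went from 9.82, 9.85 and 9.89 to 9.48, 9.29 and 9.21 and held in the reduced fits. Of 42 fatty acid genes ACOX2 alone was called, of 19 sterol genes EBP (-0.37, with -0.04 on array 2), and of 37 hypoxia and glycolysis genes none. SHMT2 rose by 0.33 (0.11 on array 2), while its second bright probe set changed by -0.21 without passing. Its remaining probe set rose by 0.45 and was called (limma over all probe sets, adjusted p = 0.0453). WARS1 rose by 0.34 among 43 stress response genes that also held SHMT2, BAG3 by 0.20 among 23 heat shock genes, and WIPI1 by 0.26 among 34 lysosome and autophagy genes. In oxidative phosphorylation 2 of 40 fell, NDUFA10 (-0.35, with -0.06 on array 2) and UQCRC1 (-0.28), or 5.0%, and of 58 mitochondrial ribosome genes MRPS33 and MRPL16 (-0.28) fell and MRPL50 rose by 0.30, or 5.17%, both near the share over all genes. Of 41 cytosolic ribosome genes, of 25 MYC targets and of 31 Wnt genes 0 were called in limma.

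**Figure D5:**
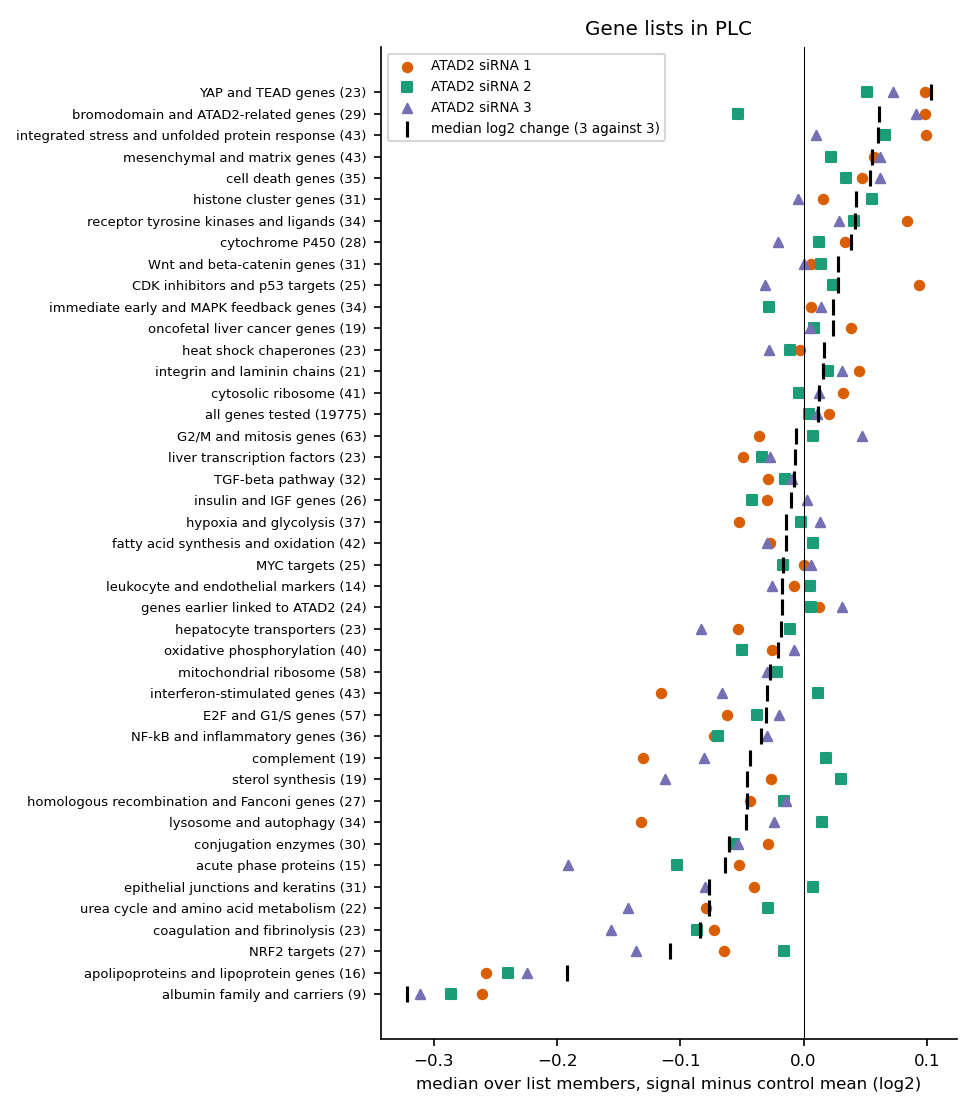
Median over the measured members of each gene list (number in brackets) of the log2 signal minus the PLC control mean, for ATAD2 siRNA arrays 1, 2 and 3, with a black bar for the median log2 change. The albumin and apolipoprotein lists lie lowest on all treated arrays, at -0.26 to -0.31 and -0.22 to -0.26, and most other lists lie within 0.1 of 0.

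Signalling and structural genes gave few calls as well. The growth factor receptor gene ERBB3 fell by 0.39, with -0.28, -0.57 and -0.33 on the treated arrays, and was the only call among 34 receptor tyrosine kinase and ligand genes. Next to IGFBP3 and SGK1, the insulin receptor gene INSR (0.33) was the third call among 26 insulin and IGF genes (11.5%, against 4.57% over all genes). The INSR change was 0.11 on array 2, and its other probe sets, of which none passed, changed by -0.03, 0.02, -0.14 and -0.18. The chemokine gene CXCL1 fell by 0.34 in PLC and rose by 0.63 under the Hep3B label (difference adjusted p = 0.0068, limma), as the only call among 36 inflammatory genes. Single falls were those of BMP4 (-0.33, with -0.15 on array 2) among 32 TGF-beta genes and HLA-C (-0.22, with -0.07 on array 2) among 43 interferon genes. Among 23 YAP and TEAD genes LATS2 rose by 0.35 (0.08 on array 2) and AJUBA fell by 0.28 (-0.20 on array 2). Of these calls, those of ERBB3 and IGFBP3 held in the reduced fits. Those of SGK1, INSR, CXCL1, BMP4, HLA-C, LATS2 and AJUBA did not. E-cadherin (CDH1), the epithelial adhesion gene, went from 7.96, 7.91 and 7.98 to 7.44, 7.44 and 7.27, a change of -0.57 (limma, adjusted p = 0.0175), and its call was lost without arrays 1 and 3, where the change on array 2 was -0.51. Of 43 mesenchymal and matrix genes 3 rose, COL6A3 by 0.38, COL4A2 by 0.34 and TIMP2 by 0.34 (2.34% rose over all genes), and the thrombospondin gene THBS1 fell by 0.47. COL4A2 was dim, with a control mean of 3.18, and its other probe set, brighter in PLC, changed by -0.18 without passing. The laminin chain gene LAMC1 rose by 0.39, from 9.64 on average, and held in the reduced fits, as did TIMP2 and THBS1. A second LAMC1 probe set, nearly as bright, changed by 0.01 and was not called (limma over all probe sets, adjusted p = 0.956). Of 19 oncofetal genes measured, 2 fell and 2 rose (21.1% called, against 4.57% over all genes). GPC3 fell by 0.39 besides AFP, while PEG10 and IGF2BP2 rose by 0.33 each, IGF2BP2 with 0.07 on array 2. None of these oncofetal calls held in the reduced fits, though on array 2 PEG10 changed by 0.34 and GPC3 by -0.29.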

How the data were processed

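The authors deposited 1 table of log2 signals for 54675 probe sets on 18 arrays, with values from 1.33 to 14.0, and the log2 scale was judged from that range. No source used here states their background correction or normalization. The submitters' processing notes name limma, with no version. Columns were quantile normalized together. A single gene was listed for 41097 probe sets, several for 1801 and none for 11777. Symbols were updated by gene identifier for 41043 from RefSeq (GRCh38.p14, names only). Each gene was read from its probe set of highest mean signal.

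The 6 group means were fitted by lmFit and eBayes of limma 3.58.1 (R 4.3.3), with two-sided p-values adjusted over all genes by Benjamini-Hochberg and a threshold of 0.05. The groups share 1 spread, so the wider PLC ATAD2 siRNA group is judged by a narrower one. The number of arrays limits precision, and the p-values measure the spread between replicates as labelled. Lists were described by counts and medians, without a test. On simulated data for this comparison, with 19775 genes and 1 spread per gene, 77% of changes of 0.5 and 97% of changes of 1 log2 unit were recovered, with 7 false calls. Replicate numbers did not pair the arrays, by deviations correlated at 0.0928, 0.0565 and 0.0763.

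Named genes were ATAD2, the 12 largest rises and falls with separate groups, up to 5 called members per list, the 10 largest changes per direction that held in the reduced fits, the 6 largest differences per direction from the other labels, and fixed markers. F10, AHSG, APOH, APOM, C3, UHRF1, CCNE1 and CDKN1A were added after their values were seen. The members and lists were chosen with earlier results of these data known. Alternatives were other normalizations, filters on dim genes, probe set rules, priors, array weights, a replicate block, a 5' to 3' covariate, thresholds and fits without single arrays. One item is not reported here.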

Additional observations from a re-analysis of the deposited data

Results flagged for a closer look

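For 59 of the 123 named genes the change in PLC differed from the mean change under the Hep3B and SNU449 labels (limma, adjusted p under 0.05 for the difference), with the PLC change lower for 42 and higher for 17. Values are log2 differences, PLC minus the mean of the others, and the ATAD2 siRNA arrays of PLC had the widest spread of the 6 groups. Several of the hepatocyte genes lay near the dim end of the scale under the Hep3B label, ALB at 3.02 and SERPINA1 at 4.92 in the median of control arrays.

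Among genes of secreted hepatocyte proteins and lipoprotein assembly the difference was -1.04 for ALB, -0.98 for FGA, -0.88 for APOE, -0.87 for ORM1, -0.77 for APOC3 and -0.72 for F13B. It was -0.68 for CP, -0.66 for RBP4, -0.61 for AFM, -0.61 for APOA1, -0.54 for FGL1, -0.53 for SERPINA1, -0.49 for APOA2, -0.47 for MTTP and -0.44 for AFP. F9 stood apart with 1.04.

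Among other hepatocyte and liver cancer genes it was -0.95 for ACOX2, -0.68 for CYP2J2, -0.57 for ASGR1, -0.53 for FAH, -0.53 for HAL, -0.44 for NR1H3, -0.43 for FOXA3 and -0.40 for CEBPA. It was -0.39 for HGD, -0.39 for SLC2A2, -0.39 for ASS1, -0.38 for ASL, -0.33 for GPC3 and -0.23 for MGST1. The aldo-keto reductase genes AKR1C3, AKR1C2 and AKR1C1 had -0.60, -0.58 and -0.50.

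Other genes with a lower change in PLC were BABAM2-AS1 at -1.22, ABAT at -1.01, ADAMTS3 at -0.97, TMEM200A at -0.85, ZPR1P1 at -0.83, LOC101928697 at -0.81, METTL21C at -0.77, CDH1 at -0.63, CXCL1 at -0.57 and EBP at -0.49. ADAMTS3 rose by 2.05 under the Hep3B label and changed by 0.07 in PLC, so that its difference came from that label.

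Genes with a higher change in PLC were TMF1 at 1.09, CCDC89 at 0.99, CPNE4 at 0.98, OMD at 0.91, PCAT18 at 0.90, OGN at 0.86, ALG14-AS1 at 0.86, RAI2 at 0.76, MRPS33 at 0.74, DNER at 0.71, RAD9B at 0.65 and PLCZ1 at 0.65. COL4A2 had 0.54, COL6A3 0.46, CDCA3 0.44 and BAG3 0.24. TMF1 fell by 2.01 under the Hep3B label and changed by 0.01 in PLC.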

How the results depend on the processing

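ATAD2 kept its call under all 18 alternatives, with log2 changes from -3.04 to -2.21. The count of higher genes (462) became 215 with arrays centred on their medians, 712 without the dimmest 50% of genes, 755 with an intensity trend and robust prior, 745 with array weights, 158 with the 5' to 3' covariate and 3 with the PLC arrays alone, and it was 69 at an adjusted p of 0.01 and 0 at a log2 change of 1. The count of lower genes (442) became 736 with centring, 712 with the trend, 729 with weights, 223 with the covariate, 12 with PLC alone, 856 over every probe set, 76 at 0.01 and 3 at a log2 change of 1. The weights were lowest for ATAD2 siRNA array 2 of PLC, at 0.24, against 0.54 and 0.79 for arrays 1 and 3. The weighted fit thus leaned on the arrays of low 5' signal. The count of genes that differed from the other labels (890) became 1675 on deposited values, 2305 with centring, 1490 without the dimmest 50%, 1403 with the trend, 1509 with weights, 403 with the covariate, 142 at 0.01 and 5 at a log2 difference of 1. With the replicate block these counts were 207, 233 and 405. Without single PLC arrays they ranged from 195 to 1698 higher, from 207 to 1517 lower and from 426 to 2875 different, with the highest without ATAD2 siRNA replicate 2. The cause was not tested.

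Of the 904 calls, 196 were also made with the covariate, 207 without ATAD2 siRNA replicates 1 and 3, 374 with the replicate block and 15 with PLC alone, and 0 of these shared calls had the opposite sign. Among the called genes named, EBP alone changed sign, at 0.053 with the mean of its probe sets. The medians of the albumin and apolipoprotein lists stayed below 0 under all 18 alternatives, from -0.36 to -0.28 and from -0.31 to -0.16. Dim signals and 3 arrays a group limit the precision.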

Other observations

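Further genes held in the reduced fits without belonging to a list, and were chosen after their values were seen. The alcohol dehydrogenase gene ADH1C had a change of -0.54 (limma, adjusted p = 0.00523), the bile acid transporter subunit gene SLC51B one of -0.49 (adjusted p = 0.00202), the amino acid transporter gene SLC6A19 one of -0.38 (adjusted p = 0.0052) and the keratin gene KRT20 one of -0.42 (adjusted p = 0.0069). On ATAD2 siRNA arrays 1, 2 and 3 the differences from the control mean were -0.52, -0.48 and -0.46 for SLC51B and -0.46, -0.72 and -0.44 for ADH1C. On the higher side, where DSC2 and F9 also lay, were the galectin gene LGALS1 (0.32, adjusted p = 0.00483 in limma), the membrane linker gene MSN (0.28, adjusted p = 0.00786) and the nuclear envelope linker gene SYNE1 (0.42, adjusted p = 0.00986).

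The MAPK phosphatase gene DUSP9 fell by 0.62 (limma, adjusted p = 0.00119), with changes of -0.003 and -0.01 under the Hep3B and SNU449 labels. SERPINF1, which encodes a secreted inhibitor of angiogenesis, fell by 0.63 in PLC and by 0.92 under the Hep3B label.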
